A study of Mus musculus with 6 samples.

Results

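Nuclei of hepatic stellate cells, the retinoid-storing pericytes that wrap the liver sinusoid, carried abundant RNA of genes best known from the nervous system. The 9 genes described here are Reln, Ntm, Lsamp, Lrrc4c, Nkain2, Dcc, Robo2, Grid1 and Ptprt, and all 9 were found by symbol among the 32285 features of the count tables. They were chosen by their high UMI levels in stellate nuclei, and by how those levels differed between kinds of stellate nuclei, in an earlier reading of these same counts. Their levels between classes of nuclei are therefore given as a description, without a test, and only the contrast of knockout with control was tested. The data are single-nucleus RNA counts from the livers of 6 male C57BL/6JBomTac mice, 18 weeks old and kept on chow, which had been fasted for 12 hours overnight, with 1 library per mouse. The 3 control mice were littermates with the genotype label Plvap Control, and the 3 knockout mice had the genotype label Plvap knockout. The source label of both groups names the same alleles, a Plvap allele written Plvaptm1.1Salm and the transgene Tg(Lrat-cre)1Rshw, so these labels leave unsaid which of the 2 alleles the controls carried. The transgene puts Cre recombinase under Lrat regulation, and Lrat is expressed in stellate cells. Mice rather than nuclei were the replicates, and p-values measure the spread between these mice.

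As background, the 9 genes take several parts in contact and guidance between cells. Reln encodes reelin, a large secreted glycoprotein that positions migrating neurons by binding lipoprotein receptors, and outside the brain it is made by stellate cells and by lymphatic endothelium. Ntm (neurotrimin) and Lsamp are glycolipid-anchored adhesion proteins of the IgLON family, and Lrrc4c encodes netrin-G ligand 1, a synaptic adhesion protein. Dcc and Robo2 are receptors for the guidance cues netrin and Slit. Grid1 is the delta 1 glutamate receptor, which bridges synapses through cerebellin and neurexin. Ptprt is a receptor tyrosine phosphatase whose outer part binds to itself across cells. Nkain2 encodes a membrane protein that interacts with the beta subunit of the sodium pump and is not an adhesion molecule in the strict sense.

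The libraries held 3672 to 5402 barcodes and 23153182 to 27199466 unique molecular identifiers (UMIs, each marking 1 captured RNA molecule). After filtering and removal of 805 doublet calls, 25662 nuclei were kept, with a median of 4076 to 5328 UMIs per nucleus over libraries. Stellate nuclei numbered 3205, with 625, 560 and 462 in control 1, 2 and 3 and 573, 507 and 478 in knockout 1, 2 and 3. All 12 stellate markers were found in at least 40.1% of them, and 0 barcode sequences were shared between libraries among them. Of the defining markers of neurons and Schwann cells, Elavl4, Nefl and the Schwann cell factor Sox10 had 0 UMIs, and Rbfox3, in 17.0% of nuclei, was the 1 neuron marker of 6 found in over 10%. The 6 neuron markers summed to 39.2 to 45.7 CPM (counts per 1000000 UMIs) in control and 39.2 to 45.2 CPM in knockout stellate nuclei, and 8 Schwann cell markers to 6.09 to 7.64 and 8.75 to 13.9 CPM. Plvap, the targeted gene, which builds the diaphragms of caveolae and fenestrae, was at 239, 213 and 240 CPM in control stellate nuclei and at 225, 187 and 155 CPM in knockout stellate nuclei. The ranges of the groups overlapped, and since no source used here names the deleted exons, a 3' tag of Plvap does not check the deletion. Summed hepatocyte markers were at 594 to 772 CPM in control and 908 to 1631 CPM in knockout stellate nuclei, and their part in the results below was not tested.

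Of 12 classes of nuclei named by marker genes, stellate nuclei had the highest mean level of every one of the 9 genes, although for Grid1 and Nkain2 the next class overlapped them. A level in CPM relates the UMIs of a gene to all UMIs of the nuclei in a class, and was computed per library and averaged over mice. Reln stood at 6170 ± 624 CPM (SD, n = 6) in stellate nuclei and at 2222 ± 809 CPM in 41 nuclei of large vessel or lymphatic endothelium (5 libraries), and these ranges over libraries did not overlap. Mmrn1, Pkhd1l1 and Ccl21a were among the leading genes of those 41 nuclei, and 23 of them came from control 2. A cluster left without a class, with Edn1, Vwf and Selp among its leading genes (275 nuclei), had a Reln UMI in 2.91% of nuclei. Ntm stood at 4243 ± 622 CPM in stellate nuclei against 87.7 ± 150 CPM in the next class, the portal or smooth muscle mesenchymal nuclei. Nkain2 was also read in mesothelial nuclei at 918 ± 1075 CPM (46 nuclei, 5 libraries) and in cholangiocyte nuclei at 584 ± 272 CPM, against 2980 ± 928 CPM in stellate nuclei. The mesothelial range, 165 to 2810 CPM, overlapped the stellate range, 1668 to 4419 CPM. Robo2 and Grid1 had portal or smooth muscle mesenchymal nuclei as their next class. Robo2 was at 1999 ± 253 CPM in stellate and 681 ± 371 CPM in those nuclei, with separate ranges, whereas Grid1 was at 436 ± 112 and 417 ± 109 CPM, which did not differ beyond the spread.

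Hepatocyte nuclei served as the comparison class for free RNA, which enters droplets without coming from the nucleus in them. The 9 genes did not follow their stellate order there: Lrrc4c was at 7.82 CPM, above Ntm at 2.47 CPM and Robo2 at 1.49 CPM. Whether hepatocyte levels hold more than free RNA was not tested. A Reln UMI was found in 99.8% of stellate nuclei and in 7.03% of hepatocyte nuclei, although hepatocyte nuclei were deeper, with a median of 10332 UMIs against 4873. The same shares were 93.2% and 2.13% for Ntm, 96.6% and 1.38% for Robo2, 83.7% and 5.06% for Lrrc4c and 79.3% and 4.62% for Nkain2. They were 51.2% and 2.13% for Grid1, 45.3% and 1.21% for Ptprt and 44.6% and 3.70% for Lsamp. Dcc had a UMI in 5.21% of stellate and 1.24% of hepatocyte nuclei, from 881 UMIs in all stellate nuclei. In sinusoidal endothelial nuclei and in macrophages each of the 9 genes was at 7.41 CPM or less.

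**Figure D1:**
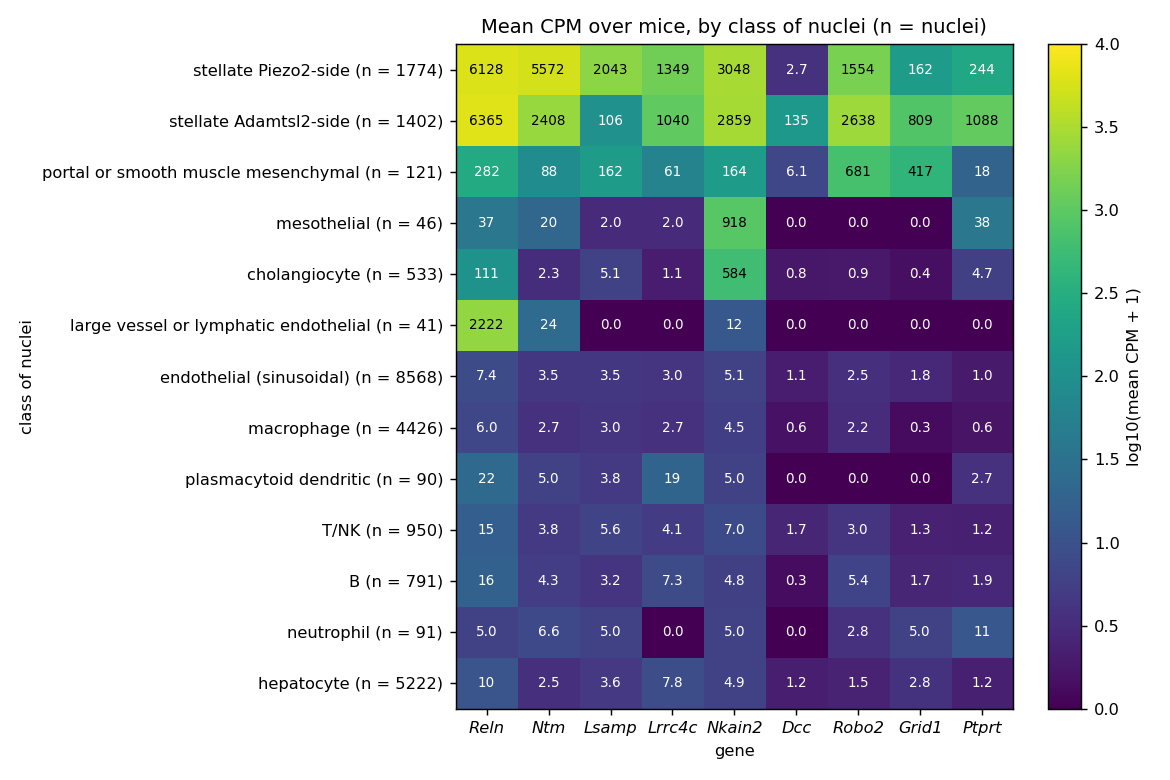
Mean CPM over mice of the 9 genes (columns) in classes of nuclei (rows, with the number of nuclei), coloured by log10(mean CPM + 1). The 2 stellate rows are high throughout except for Dcc, Lsamp, Grid1 and Ptprt, which are lower in 1 of them, and outside them Reln in large vessel or lymphatic endothelium (2222 CPM) and Nkain2 in mesothelial (918 CPM) and cholangiocyte nuclei (584 CPM), and Robo2 (681 CPM) and Grid1 (417 CPM) in portal or smooth muscle mesenchymal nuclei, stand out.

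Portal or smooth muscle mesenchymal nuclei (121 nuclei, 12 to 28 per library) shared a subset of the genes with stellate nuclei. Robo2 was at 1370, 397 and 504 CPM in control 1, 2 and 3 and at 692, 752 and 370 CPM in knockout 1, 2 and 3, and 54.5% of these nuclei had a Robo2 UMI. Grid1 was read in all 6 libraries too, at 261 to 564 CPM, and in 47.1% of nuclei. Both genes were thus read in every library. Reln was found in 21.5% of these nuclei at 82.3 to 654 CPM. The other 6 genes were patchy: Ntm had 66 UMIs in all and 52 of them came from knockout 2, and Nkain2 had 116, with 75 from knockout 2. Ntm, Lsamp, Nkain2, Lrrc4c, Ptprt and Dcc each had 0 UMIs in at least 1 of the libraries. With fewer than 20 nuclei in 2 libraries, this class was not tested for the knockout.

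Stellate nuclei were clustered again without the 9 genes, 76 other genes of their families, and Plvap. The sub-clusters were then sorted into 2 kinds by their shares of nuclei with a Piezo2 and an Adamtsl2 UMI. The 2 kinds thus follow from this rule and were not found by the clustering itself. One kind was richer in Piezo2 and poorer in Adamtsl2 than stellate nuclei as a whole, and is called Piezo2-side here (1774 nuclei), and the reverse kind is called Adamtsl2-side (1402 nuclei). As background, Ngfr has been used as a marker of stellate cells near the portal tract and Adamtsl2 of those near the central vein, but the nuclei carry no position. Ngfr was found in 16.2% of Piezo2-side and 2.64% of Adamtsl2-side nuclei, and Spon2 in 1.41% and 14.8%. A further 29 stellate nuclei were in sub-clusters led by genes of blood cells and were in neither kind. The largest Adamtsl2-side sub-cluster (941 nuclei) had Piezo2 in 45.9% and Adamtsl2 in 25.7% of its nuclei after thinning to equal depth. Over all stellate nuclei the same shares were 57.8% and 17.7%. With nuclei gated on Piezo2 and Adamtsl2 UMIs instead, 25.6% to 42.9% of stellate nuclei per library were in neither kind. The 2 kinds had similar depth, with a median of 5084 UMIs in Piezo2-side and 4632 in Adamtsl2-side nuclei.

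Between the 2 kinds, Ntm, Lsamp and Lrrc4c were higher in Piezo2-side nuclei, Robo2, Grid1, Ptprt and Dcc were higher in Adamtsl2-side nuclei, and Reln and Nkain2 were near equal. The order held in each of the 6 mice for the first 2 sets of genes. These differences are descriptions, since the levels had been seen when the genes were chosen.

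Reln, the secreted ligand among the 9, was at 6693, 5903 and 6412 CPM in Piezo2-side nuclei of control 1, 2 and 3 and at 6569, 5816 and 5374 CPM in those of knockout 1, 2 and 3. In Adamtsl2-side nuclei the same mice had 7797, 5098, 6569, 6889, 6138 and 5699 CPM. The ratio of Piezo2-side to Adamtsl2-side was 0.858 to 1.16 over mice, on both sides of equality. A Reln UMI was found in 99.9% of Piezo2-side and 99.6% of Adamtsl2-side nuclei.

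Lsamp had the widest contrast in favour of Piezo2-side nuclei. It stood at 1739, 1683 and 2024 CPM in control 1, 2 and 3 and at 2063, 1995 and 2758 CPM in knockout 1, 2 and 3 there. In Adamtsl2-side nuclei it stood at 39.9, 120 and 120 CPM in the controls and at 120, 54.9 and 179 CPM in the knockouts. Piezo2-side nuclei were 14.0 to 43.5 times higher within a mouse, and the highest Adamtsl2-side library lay far under the lowest Piezo2-side library. A Lsamp UMI was found in 72.9% of Piezo2-side and 9.20% of Adamtsl2-side nuclei.

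Ntm, the other IgLON gene, went the same way over a smaller range. Its Piezo2-side levels were 5801, 5151 and 5552 CPM in the controls and 5216, 6053 and 5658 CPM in the knockouts. Its Adamtsl2-side levels were 2182, 1638 and 2798 CPM in the controls and 2435, 2430 and 2965 CPM in the knockouts. Piezo2-side nuclei were 1.91 to 3.15 times higher within a mouse, and the 2 sets of libraries did not overlap. Nearly all Piezo2-side nuclei had a Ntm UMI (99.9%), against 84.7% of Adamtsl2-side nuclei.

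Lrrc4c, the netrin-G ligand, was 1.13 to 1.58 times higher in Piezo2-side nuclei within each mouse, but its levels over mice overlapped between the kinds. Its Piezo2-side levels were 1913, 850 and 1157 CPM in control 1, 2 and 3 and 1352, 1869 and 955 CPM in knockout 1, 2 and 3. Its Adamtsl2-side levels were 1492, 537 and 963 CPM in the controls and 1197, 1323 and 727 CPM in the knockouts. The differences between mice were thus larger than those between the kinds. Nkain2, the sodium pump partner, was higher in Piezo2-side nuclei in 3 of 6 mice, at 4610, 1936 and 3489 CPM in the controls and 2800, 2769 and 2686 CPM in the knockouts there. In Adamtsl2-side nuclei it was at 3805, 1485 and 3605 CPM in the controls and 2833, 2251 and 3177 CPM in the knockouts.

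Of the 2 kinds, the guidance receptor Dcc was nearly confined to Adamtsl2-side nuclei, with 815 of its UMIs there and 29 in Piezo2-side nuclei. A further 37 UMIs came from 2 of the 29 stellate nuclei in neither kind. Its Adamtsl2-side levels were 295, 68.8 and 64.4 CPM in control 1, 2 and 3 and 171, 108 and 102 CPM in knockout 1, 2 and 3. In Piezo2-side nuclei 5 libraries were at 0.747 to 6.42 CPM and control 3 was at 0. The Adamtsl2-side level was 41.4 to 92.0 times higher in the 5 mice with a ratio. Only 10.6% of Adamtsl2-side nuclei had a Dcc UMI, and 0.958% of Piezo2-side nuclei did, against 1.24% of the deeper hepatocyte nuclei. After thinning to equal depth the shares were 0.284% of Piezo2-side and 0.25% of hepatocyte nuclei. The Dcc level was 2.69 ± 2.33 CPM in Piezo2-side and 1.16 ± 0.274 CPM in hepatocyte nuclei (SD over mice). Whether the Piezo2-side UMIs of Dcc are more than free RNA was not tested.

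Robo2, the Slit receptor, was read in nearly every nucleus of both kinds (94.8% and 98.9%) and was 1.65 to 1.74 times higher in Adamtsl2-side nuclei. The Piezo2-side levels were 1843, 1734 and 1570 CPM in the controls and 1465, 1433 and 1281 CPM in the knockouts. The Adamtsl2-side levels were 3197, 2866 and 2617 CPM in the controls and 2494, 2425 and 2230 CPM in the knockouts. This ratio varied least between mice of the 9, and in both kinds the 3 knockouts were the 3 lowest libraries.

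Grid1, the delta receptor, was 3.98 to 6.23 times higher in Adamtsl2-side nuclei. It stood at 152, 188 and 190 CPM in control and at 171, 147 and 125 CPM in knockout Piezo2-side nuclei. In Adamtsl2-side nuclei it stood at 784, 879 and 987 CPM in the controls and at 679, 744 and 781 CPM in the knockouts. A Grid1 UMI was found in 79.6% of Adamtsl2-side and 28.8% of Piezo2-side nuclei.

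Ptprt, the phosphatase, was 3.52 to 6.28 times higher in Adamtsl2-side nuclei, with a wide spread over mice. Its Adamtsl2-side levels were 1846, 361 and 1288 CPM in control 1, 2 and 3 and 1162, 751 and 1119 CPM in knockout 1, 2 and 3. Its Piezo2-side levels were 524, 74 and 208 CPM in the controls and 290, 191 and 178 CPM in the knockouts, so that control 1 in Piezo2-side nuclei lay above control 2 in Adamtsl2-side nuclei. Lsamp and Ptprt thus had opposite levels in the 2 kinds of stellate nuclei, and the 250 bases before their annotated starts are printed for that reason. RefSeq gives them on build GRCm38.p6 as chr16:39984114-39984363 (plus strand) for the first listed start of Lsamp and chr2:162661148-162661397 (minus strand) for Ptprt. The 4 motifs searched were the homeodomain core TAATTA and 3 E-boxes, spelled CAGCTG with a GC centre, CATATG with an AT centre and CACGTG with a CG centre. Each reads the same on both strands, and no 2 of them overlap in these stretches. Capitals mark the 1 match, to the first of the E-boxes.
Lsamp: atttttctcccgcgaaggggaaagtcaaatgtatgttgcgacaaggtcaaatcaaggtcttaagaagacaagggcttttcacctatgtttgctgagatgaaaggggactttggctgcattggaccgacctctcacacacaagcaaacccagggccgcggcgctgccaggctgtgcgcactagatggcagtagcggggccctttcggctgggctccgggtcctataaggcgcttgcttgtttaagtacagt
Ptprt: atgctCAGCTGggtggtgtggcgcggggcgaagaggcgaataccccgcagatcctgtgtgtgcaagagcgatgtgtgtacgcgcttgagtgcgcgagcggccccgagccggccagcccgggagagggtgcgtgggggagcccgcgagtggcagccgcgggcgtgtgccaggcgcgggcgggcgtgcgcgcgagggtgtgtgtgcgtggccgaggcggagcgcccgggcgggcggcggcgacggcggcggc
The Ptprt stretch is 76.4% G or C and the Lsamp stretch 53.2%, against a median of 52% over 27025 promoters of that length. CAGCTG occurs in 12.8% of those promoters, TAATTA in 4.90%, CATATG in 3.47% and CACGTG in 6.05%. A match is a description of letters and not of a bound factor.

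**Figure D2:**
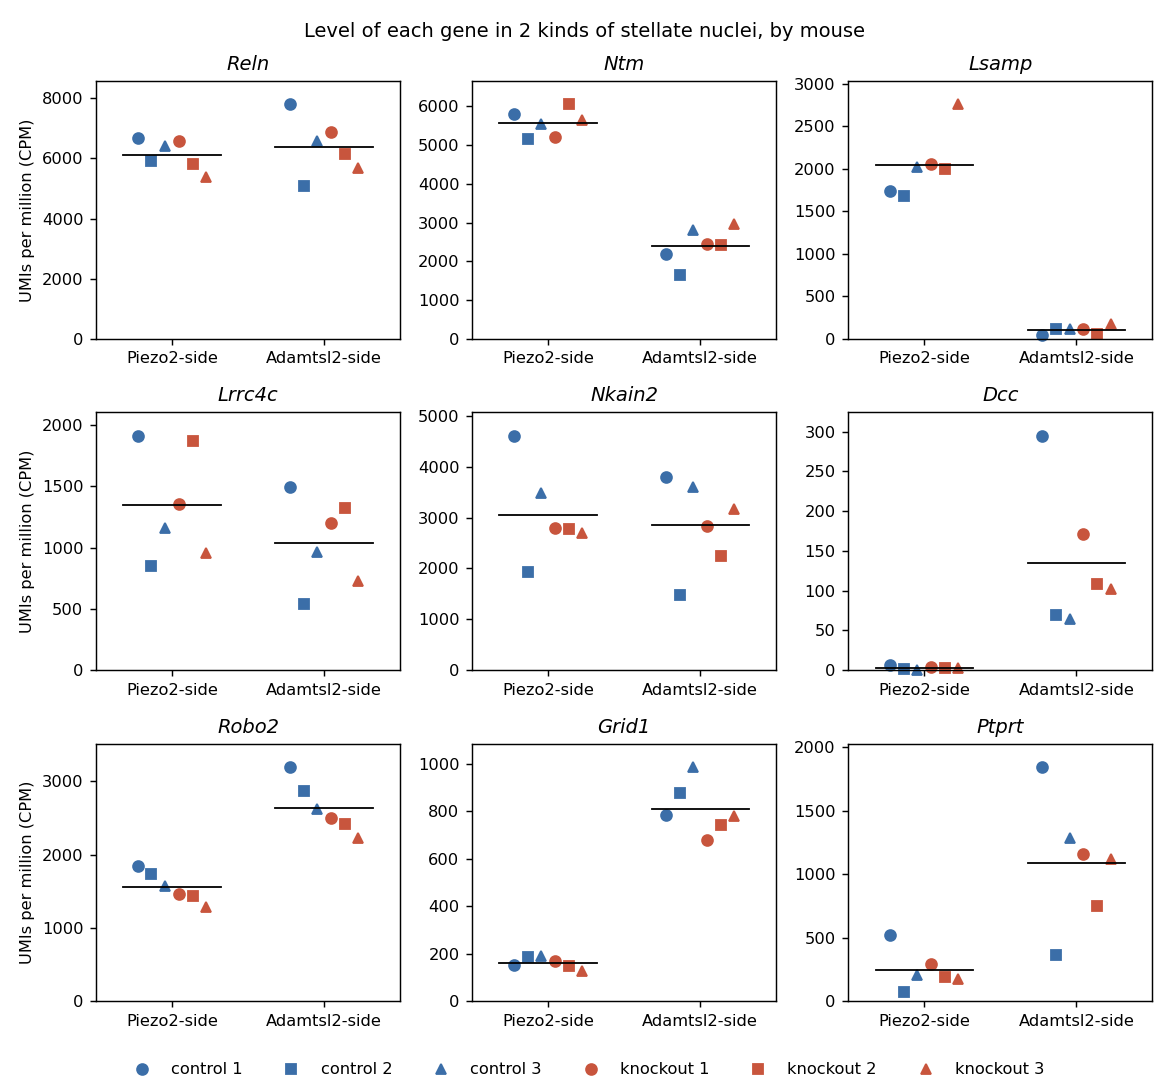
CPM of each gene (1 panel per gene, axes from 0) in Piezo2-side and Adamtsl2-side stellate nuclei, with 1 point per mouse (controls blue, knockouts red) and a line at the mean of 6 mice. The mice of the 2 kinds do not overlap for Ntm, Lsamp, Dcc, Robo2 and Grid1, and they overlap for Reln, Lrrc4c, Nkain2 and Ptprt.

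Within each kind the genes were not even. On the Piezo2-side, the sub-cluster led by Clstn2, Dgkb and Notch3 (857 nuclei) had Lsamp at 3012 ± 804 CPM (SD, n = 6) and Ptprt at 57.3 ± 45.9 CPM, whereas the one led by Grin2b (917 nuclei) had Lsamp at 1123 ± 284 CPM and Ptprt at 454 ± 183 CPM. Nkain2 was at 1919 ± 684 CPM in the first and at 3884 ± 1282 CPM in the second. On the Adamtsl2-side, the sub-cluster led by Inmt and Spon2, and by Dcc and Ptprt themselves (941 nuclei), had Ntm at 3060 ± 476 CPM and the one led by Wt1 (422 nuclei) had Ntm at 1114 ± 251 CPM. The Wt1-led sub-cluster had the highest Grid1 of these 4, at 1088 ± 120 CPM, and 49.3% of its nuclei came from control 2. These sub-clusters were drawn without the 9 genes, on other genes of the same nuclei.

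Mice differed widely in several of these genes, and control 1 was the highest and control 2 the lowest library for Reln, Ntm, Lrrc4c, Nkain2 and Ptprt. Over all stellate nuclei, Ptprt was at 844, 240 and 706 CPM in control 1, 2 and 3 and at 639, 405 and 595 CPM in knockout 1, 2 and 3. Nkain2 was at 4419, 1668 and 3534 CPM in the controls and at 2780, 2578 and 2898 CPM in the knockouts. The highest library was 3.52 times the lowest for Ptprt, 2.70 times for Lrrc4c and 2.65 times for Nkain2, against a median of 1.31 and a 95th percentile of 2.22 over the 1918 tested genes with at least 100 CPM. The same ratio was 1.27 for Reln and 1.41 for Robo2. Dcc, with a mean of 52.6 CPM and so not among those genes, had a ratio of 2.69.

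The mix of kinds differed between the same mice. Piezo2-side nuclei made up 71.2% of stellate nuclei in control 1, 38.2% in control 2 and 52.6% in control 3, and 56.7%, 57.6% and 53.3% in knockout 1, 2 and 3. The spread of Ptprt, Lrrc4c and Nkain2 was also found within the kinds: highest over lowest was 7.09, 2.25 and 2.38 in Piezo2-side nuclei and 5.12, 2.78 and 2.56 in Adamtsl2-side nuclei. The mix of sub-clusters within the kinds differed between mice too. The Grin2b-led sub-cluster made up 53.9%, 5.54% and 14.9% of stellate nuclei in control 1, 2 and 3. In knockout 1, 2 and 3 it made up 41.5%, 41.8% and 6.28%. The Wt1-led one made up 3.04%, 37.1% and 9.31% in the controls and 8.38%, 10.7% and 10.5% in the knockouts. The part of this mix in the spread was not tested. In the Inmt- and Spon2-led sub-cluster alone, with 128 to 184 nuclei per library, Ptprt was at 1959 CPM in control 1 and at 486 CPM in control 2. Lrrc4c was highest in control 1 and knockout 2 in both kinds, and lowest in control 2 in both kinds. The 9 genes together took 2.27%, 1.49% and 1.99% of stellate UMIs in the controls and 1.91%, 1.87% and 1.81% in the knockouts.

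**Figure D3:**
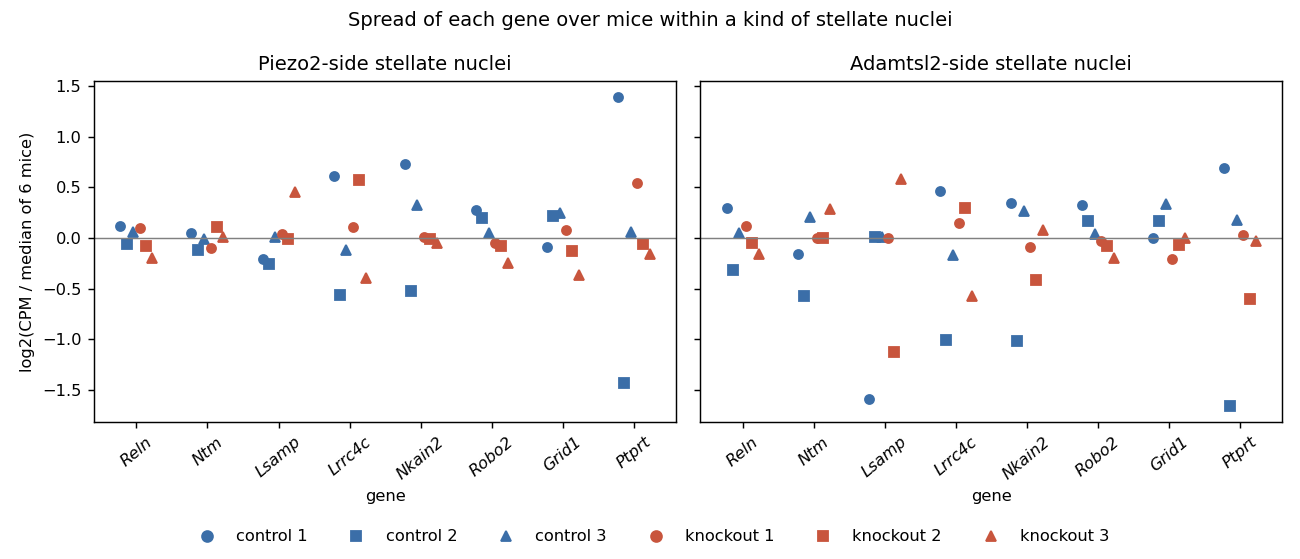
log2 of the CPM in each mouse over the median of 6 mice, for 8 genes (Dcc, at 0 in 1 library, is left out) in Piezo2-side (left) and Adamtsl2-side stellate nuclei (right). Control 1 (blue circle) is the highest and control 2 (blue square) the lowest point for Ptprt and Nkain2 in both panels, while Reln and Robo2 stay closer to 0.

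The 9 genes are long, so levels of the 9 were set against each other per kilobase of annotated span. Spans in GENCODE M21 (mm10) ran from 460 kb for Reln to 2197 kb for Lsamp, against a median of 25.9 kb over 12025 tested genes. Per kilobase, Reln was at 13.4 CPM, Ntm at 4.38, Robo2 at 3.85 and Nkain2 at 2.48, above the median tested gene at 1.09. Lrrc4c at 0.929, Grid1 at 0.571, Lsamp at 0.559, Ptprt at 0.502 and Dcc at 0.0479 were below it. RefSeq lists starts of Robo2 upstream of the GENCODE span, and over the span to the farthest of them, 1555 kb, Robo2 was at 1.29 CPM per kilobase, below Nkain2. Whether introns were counted, and on which strand, is not stated in any source used here, so UMIs of overlapping genes cannot be told apart. Reln (chromosome 5, 21884454 to 22344702, minus strand) overlaps 2 other genes of the count table, which had 3126 UMIs in stellate nuclei against 102323 of Reln. Ntm (chromosome 9, 28994750 to 29963141, minus strand) overlaps 2, with 757 UMIs against 69698. Lsamp lies on chromosome 16 from 39984361 to 42181679, Lrrc4c on chromosome 2 from 96318169 to 97631666 and Nkain2 on chromosome 10 from 31689310 to 32890462. Robo2 lies on chromosome 16 from 73891839 to 74411825, Grid1 on chromosome 14 from 34820108 to 35583379 and Ptprt on chromosome 2 from 161521990 to 162661147.

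In knockout against control stellate nuclei, 0 of the 9 genes passed edgeR's quasi-likelihood test with Benjamini-Hochberg adjustment over all tested genes. The test called 6 of 12027 genes (0.0499%), 5 higher (0.0416%) and 1 lower (0.00831%). DESeq2 called 14, and 0 of the 9 were among them. At an unadjusted p under 0.05 there were 484 genes, 1 of them among the 9. On simulated counts of this comparison, over 12036 genes, the test recovered 70% of genes changed by 1 on the log2 scale and 93% of those changed by 2, 100 of each. It also called 7 genes that had not been changed. Every simulated gene had the same dispersion between mice. The recovered shares were not computed for the spread of the 9 genes, so they give no power for genes such as Ptprt or Lrrc4c.

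Robo2 was the 1 gene of the 9 with that unadjusted p. It stood at 2163, 2389 and 2049 CPM in control 1, 2 and 3 and at 1880, 1815 and 1700 CPM in knockout 1, 2 and 3. All 3 knockouts lay below all 3 controls, with a log2 fold change of -0.34 (SE 0.123, unadjusted p = 0.0176, edgeR adjusted p = 0.9998), which did not pass. Robo2 was the 1 of the 9 whose groups did not overlap, and the groups did not overlap in 10.3% of all tested genes, so the count for the 9 is near the background. The fold change was -0.35 (SE 0.127) in Piezo2-side nuclei and -0.34 (SE 0.143) in Adamtsl2-side nuclei. It stayed between -0.39 and -0.29 in all stellate nuclei over the 15 alternatives tried.

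Grid1 was at 307, 590 and 554 CPM in control and at 371, 375 and 416 CPM in knockout stellate nuclei, with overlapping groups (-0.38, SE 0.225, edgeR adjusted p = 0.9998). Without control 1, the lowest control, the fold change was -0.62 (edgeR adjusted p = 0.249), and leaving out the lowest control enlarges a drop by construction. Control 1 also had the most Piezo2-side nuclei, and the part of that mix was not tested. In Adamtsl2-side nuclei the 3 knockouts lay below the 3 controls, at 883 ± 102 CPM in controls and 735 ± 51.6 CPM in knockouts (SD over 3 mice). The fold change there was -0.33 (SE 0.147, edgeR adjusted p = 0.999), which did not pass. Lsamp went the other way, at 1306, 774 and 1147 CPM in the controls and 1292, 1235 and 1621 CPM in the knockouts, with overlapping groups (0.31, SE 0.199).

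For the other 6 genes the standard error was larger than the fold change. Reln was at 6289 ± 767 CPM in control and 6051 ± 584 CPM in knockout stellate nuclei (SD, n = 3 each, -0.11, SE 0.148). Ntm was at 0.05 (SE 0.169), Lrrc4c at 0.04 (SE 0.412), Nkain2 at -0.28 (SE 0.331), Ptprt at -0.18 (SE 0.505) and Dcc at 0.12 (SE 0.424). The median of the 9 was -0.11 and that of all tested genes 0.00. Within the kinds, 0 of 8 genes that passed the count filter in Piezo2-side nuclei and 0 of 9 in Adamtsl2-side nuclei passed the test. It called 0.0487% of genes in Piezo2-side nuclei (455 at an unadjusted p under 0.05), all higher, and 0.0631% in Adamtsl2-side nuclei (337), of which 0.0526% were higher and 0.0105% lower. The groups did not overlap for Robo2 on the Piezo2-side, against 10.2% of all genes, and for Robo2 and Grid1 on the Adamtsl2-side, against 9.52%.

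**Figure D4:**
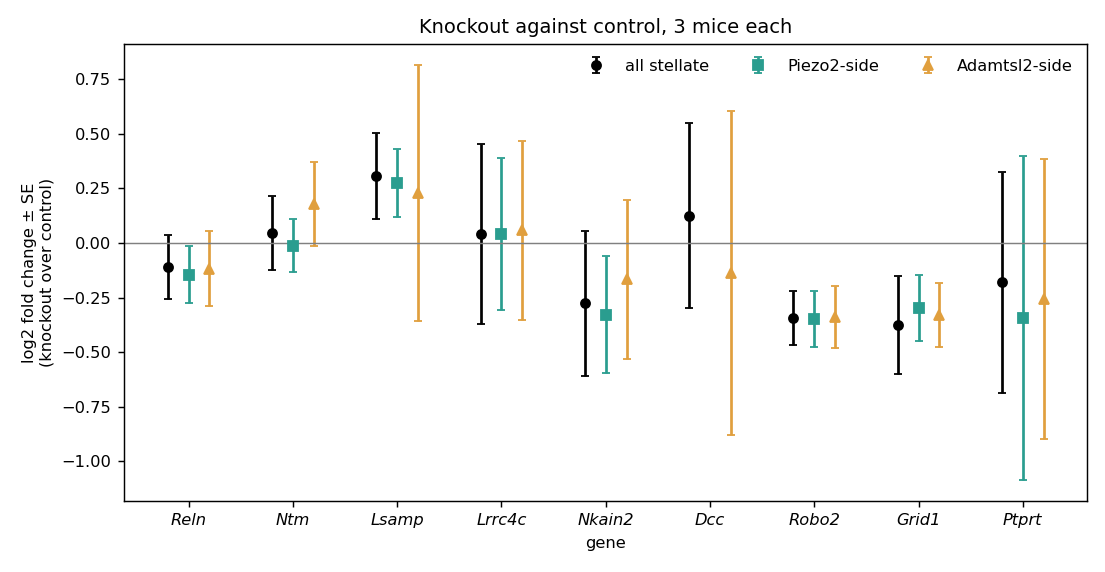
log2 fold change of knockout over control, with its standard error from edgeR, for each gene in all stellate nuclei (black), Piezo2-side (green) and Adamtsl2-side nuclei (orange), 3 mice per group. Robo2 is at -0.35 to -0.34 with short bars in all 3 sets, and the bars of Reln, Ntm, Lrrc4c, Nkain2, Dcc and Ptprt cross 0 in all stellate nuclei.

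Whether the knockout difference was unlike in the 2 kinds was tested directly. The test of the difference of the fold changes (edgeR, mouse as a block) called 0 of 10863 genes (0.0%). An unadjusted p below 0.05 was found for 484 of them, a share that is itself below 0.05. The 9 genes were between -0.44 (SE 0.559, Dcc) and 0.22 (SE 0.154, Ntm) as Adamtsl2-side minus Piezo2-side. For Robo2 the difference was 0.01 (SE 0.0966). The share of Piezo2-side nuclei was 54.0% ± 16.5 in control mice and 55.9% ± 2.24 in knockout mice (SD, n = 3 each, exact permutation test, two-sided, p = 0.7), in a design in which the smallest possible p is 0.1.

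The share of nuclei with a UMI of each gene was compared after every nucleus was thinned to 1500 UMIs, which left 3178 of 3205 stellate nuclei. Over the 9 genes, 0 had knockouts and controls that did not overlap, where 9.22% of 4618 genes found in 5% to 95% of thinned nuclei did not. The share for Robo2 was 87.1%, 91.3% and 84.4% in control 1, 2 and 3 and 83.7%, 85.4% and 80.4% in knockout 1, 2 and 3, with the groups overlapping. Without thinning the Robo2 shares were 96.6%, 98.2% and 97.2% and 96.2%, 96.6% and 94.4%. The Ptprt share was 43.8%, 17.9% and 41.0% in the controls and 36.2%, 26.4% and 37.9% in the knockouts, with control 2 the lowest. A thinned nucleus held on average 5.61, 4.67 and 5.46 of the 9 genes in the controls and 5.29, 5.13 and 5.19 in the knockouts, and 1 nucleus, of control 2, had none of them.

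Whether the genes exclude one another was read from nuclei that held both genes of a pair. Of 3178 thinned stellate nuclei, 1093 had a Lsamp UMI without Grid1, 938 Grid1 without Lsamp and 143 both, where independent detection within each library gives 411. Lsamp with Ptprt gave 136 nuclei with both where 433 were expected, and Lsamp with Dcc gave 2 where 41.0 were expected. In contrast, Grid1 and Ptprt were together in 529 nuclei against 354 expected, Dcc and Ptprt in 81 against 36.5, and Ntm and Lsamp in 1216 against 1110. The genes were chosen with their levels in the 2 kinds known, with Lsamp on one side and Grid1, Ptprt and Dcc on the other, so these counts over all stellate nuclei, and their place among all pairs of genes, are descriptions.

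As a log2 odds ratio per library, where negative values mean fewer shared nuclei than independence gives, Lsamp with Grid1 was at -2.82 ± 0.239 in control mice and -2.77 ± 0.0531 in knockout mice (SD, n = 3 each). Lsamp with Ptprt was at -3.22 ± 0.356 and -3.03 ± 0.646, and both pairs were negative in 6 of 6 mice. Over 10660653 pairs of genes found in 5% to 95% of nuclei, the median was 0.01 and the 5th percentile -0.48. The distance from 0 was smaller within the 2 kinds, taken as 1 odds ratio pooled over both. Its mean over mice was -1.45 for Lsamp with Grid1 and -1.94 for Lsamp with Ptprt, still negative in 6 of 6 mice. The kinds were not alike. Over all mice, 5.86% of Piezo2-side nuclei had both Lsamp and Grid1, against 9.69% under independence. On the Adamtsl2-side it was 2.88% against 3.63%, above independence in control 1 (1.79% against 1.01%) and below it in the other mice. Lsamp with Ptprt was at 5.63% against 12.0% on the Piezo2-side and at 2.59% against 3.33% on the Adamtsl2-side. Ntm with Grid1 moved from -1.58 in controls and -1.85 in knockouts to -0.46 within kinds. Grid1 with Ptprt was at 1.54 ± 0.474 and 1.75 ± 0.133, and at 0.60 within kinds. Over all mice, 5.18% of Piezo2-side nuclei had both Grid1 and Ptprt, against 2.76% under independence. On the Adamtsl2-side the share was near independence, 31.1% against 30.9%.

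Between knockout and control, 3 of the 36 pairs did not overlap. All 3 were among the 21 pairs of the 7 genes found in 5% to 95% of nuclei (14.3%), where 9.99% of all pairs of genes in that range did not overlap. They were Ntm with Ptprt (-0.80 ± 0.478 in controls and 0.06 ± 0.395 in knockouts), Lsamp with Robo2 (-1.42 ± 0.133 and -1.11 ± 0.126) and Robo2 with Ptprt (1.42 ± 0.311 and 0.83 ± 0.128). Each had n = 3 and p = 0.1 in a two-sided exact permutation test, the smallest this design allows. After Benjamini-Hochberg adjustment of that test over the 36 pairs, p was 0.929 for each, so these pairs did not pass. Their share of 14.3% is near the 9.99% of all pairs. Pairs with Reln, which is in nearly every nucleus, rest on the few nuclei without it and are not read. Nuclei of a mouse are not replicates, and the odds ratios were compared over mice.

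**Figure D5:**
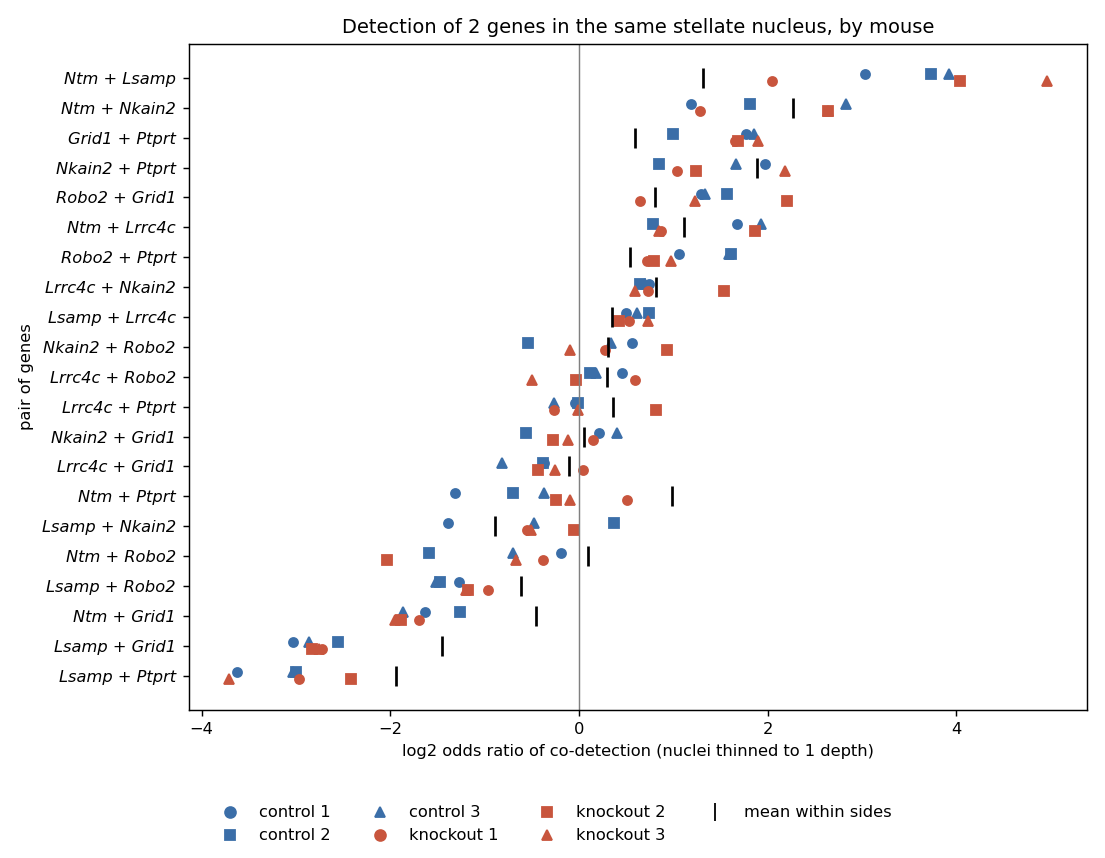
log2 odds ratio of finding both genes of a pair in the same thinned stellate nucleus, for the 21 pairs of the 7 genes found in 5% to 95% of nuclei, with 1 point per mouse (controls blue, knockouts red) and a black bar at the mean within the 2 kinds. Pairs of Lsamp with Ptprt and Grid1 are the lowest and Ntm with Lsamp the highest, and the bars lie nearer to 0 than the points for these pairs.

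Of 76 other genes of the same families and pathways, 32 passed the count filter in stellate nuclei and 0 passed the edgeR test against the knockout. Of the 32, 13 were higher and 19 lower, with a median log2 fold change of -0.10. Unadjusted p in the edgeR test was under 0.05 for Nrxn3, Unc5b, Tenm4 and Flrt2 (4 of the 32, against 484 of all 12027 tested genes). Groups did not overlap for Nrxn3, Ntng2, Neo1 and Tenm4 (12.5% of the 32, against 10.3% of all genes). Unc5b, Tenm4 and Flrt2 are named after their values were seen, and the last 2 averaged 3.19 and 12.4 CPM. Known partners of the 9, named here after their values were seen, were read unevenly. Nrxn3, a neurexin, was at 2285 CPM and Ntn1, the netrin that DCC binds, at 634 CPM, whereas the Robo ligands Slit1, Slit2 and Slit3 were at 0.221, 0.554 and 4.78 CPM, the 4 cerebellins at 0.13 CPM or less, and the reelin receptors Vldlr and Lrp8 at 0 and 0.118 CPM. Nrxn3 stood at 1888 ± 327 CPM in the control mice and 2681 ± 568 CPM in the knockout mice, without overlap (0.45, SE 0.175, edgeR adjusted p = 0.9998). Ntn1 was at -0.10 (SE 0.276).

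Levels of the relatives of the 9 are in CPM, without correction for length. Robo1, the sister of Robo2, was at 573 CPM and Srgap2, which acts downstream of Robo receptors, at 402 CPM, with fold changes of -0.10 (SE 0.119) and -0.11 (SE 0.148). Ptprk, of the same phosphatase group as Ptprt, was at 3839 CPM (-0.13, SE 0.161) and Ptprm at 235 CPM (0.04, SE 0.106). The IgLON genes Opcml and Iglon5 were at 13.3 and 12.9 CPM, and by kind Opcml was at 2.93 CPM in Piezo2-side and 24.6 CPM in Adamtsl2-side nuclei, Iglon5 at 16.2 and 7.58 CPM. Lrrc4, a paralog of Lrrc4c, was at 113 CPM (-0.21, SE 0.151), and the netrin-G Ntng2 at 62.1 CPM (0.31, SE 0.147). Neo1, the relative of Dcc, was at 115 CPM (0.15, SE 0.114). Nkain1 and Nkain3 were at 14.6 and 6.34 CPM, and the synaptic Nlgn2 and Lrrtm3 both at 30 CPM or less. Of the 4 genes of the reelin pathway listed, Dab2 alone was tested, at 42.7 CPM. Adgrl3, a latrophilin, was at 250 CPM in Piezo2-side and 10.5 CPM in Adamtsl2-side nuclei, and Adgrl2 at 136 and 202 CPM.

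The genes whose levels over classes were most like those of the 9 were named by the highest Pearson r of log2(CPM + 1) over 13 points (11 classes and the 2 kinds of stellate nuclei), among 12027 tested genes. The 9 genes themselves were left out of this ranking. The points share libraries, and most of the range of each gene lies between stellate and other nuclei. Robo2 and Grid1 had the same 2 genes, Mamdc2 (0.99 and 0.98) and Ednra (0.98 and 0.97). Robo2 and Grid1 had r = 0.977 with each other, above both of these genes for Grid1. Ntm was nearest to Colec10 (0.97) and Gm15520, Lsamp to Gm33696 and Heyl (0.97 each), Lrrc4c to Adra2b (0.97) and Gm12524, and Nkain2 to Adamts15 (0.95) and Plekhh2. Reln was nearest to Gm10475 (0.97) and Doc2b (0.95), Dcc to Gm45194 (0.95) and 2610028E06Rik, and Ptprt to Hand2 (0.93) and Sycp1.

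Outside stellate nuclei, the knockout contrast was tested by edgeR in 6 classes with at least 20 nuclei in every library, and 0 of the genes that met the count filter there passed. All 9 met it in hepatocyte nuclei, 7 in sinusoidal endothelial nuclei, 4 in macrophages, 2 in cholangiocytes and 0 in B and in T and NK nuclei. It called 0.0407% of genes in B nuclei (0.0204% higher and 0.0204% lower) and 0.0152% in T and NK nuclei, all of the latter higher. It called 0.0% in cholangiocyte, sinusoidal endothelial, hepatocyte and macrophage nuclei, with 286, 547, 468 and 395 genes at an unadjusted p under 0.05. In cholangiocytes Nkain2 was at 447 ± 257 CPM in controls and 720 ± 251 CPM in knockouts (SD over 3 mice), with overlapping groups (0.64, SE 0.593). In hepatocyte nuclei Lrrc4c was at 11.2 ± 1.33 CPM in controls and 4.45 ± 0.756 CPM in knockouts. Reln was at 6.30 ± 1.53 and 14.0 ± 3.90 CPM there. Both had groups without overlap and did not pass, with log2 fold changes of -1.40 (SE 0.225) and 1.09 (SE 0.307). In the edgeR test the unadjusted p was 0.000367 for Lrrc4c and 0.00854 for Reln, and the adjusted p was 0.999 for each. Both unadjusted values lay under the 0.0176 of Robo2 in stellate nuclei. The share of all genes without overlap was not computed for hepatocyte nuclei, so these genes cannot be set against it.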

How the data were processed

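The deposited files hold raw UMI counts per gene and barcode for 6 libraries, 1 per mouse. The authors made these counts with Cell Ranger on mm10, version 7.0.1 per the submitters' processing notes and 7.1.0 per the file headers. Nuclei with at least 500 genes, at least 1000 UMIs and under 5% mitochondrial UMIs were kept, and doublets were called with Scrublet (expected rate 0.06) in scanpy 1.11.5 (Python 3.11.15) and removed. Nuclei were clustered on 3000 variable genes, 30 components and 15 neighbours (Leiden, leidenalg 0.10.2, resolution 1), and clusters were named from marker lists. Stellate nuclei were clustered again at resolution 0.5 without the 9 genes, their families and Plvap. A sub-cluster was Piezo2-side where its share of nuclei with a Piezo2 UMI was above, and with an Adamtsl2 UMI below, that of all stellate nuclei.

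Counts were summed per mouse and tested with edgeR 4.0.16 in R 4.3.3 (TMM, filterByExpr, robust quasi-likelihood, Benjamini-Hochberg threshold 0.05), checked on simulated counts. DESeq2 1.42.0 was an alternative. Odds ratios had 0.5 added to each cell. The pseudocount for likeness was 1 CPM. Levels rest on 2391801 to 3218150 stellate UMIs per library, and the SD over mice was used as their error. CPM is the UMIs of a gene divided by all UMIs of a set of nuclei times 1000000. Replicate numbers were given in accession order and pair no samples. Named genes were the 9, Plvap, and in each family the 2 highest by CPM and any past the threshold. Of these, 1 gene is not reported here. Members and lists were chosen with earlier results of these data known. Spans come from GENCODE M21, where 32235 of 32285 features matched.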

Additional observations from a re-analysis of the deposited data

How the results depend on the processing

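Leaving out each library in turn gave 5 to 8 genes past the threshold in stellate nuclei, 4 to 9 in Piezo2-side and 5 to 9 in Adamtsl2-side nuclei, and 0 to 3 for the difference between the kinds, with 3 without control 1. Without a low-count filter these counts were 60, 48, 33 and 4. DESeq2 gave 14 in stellate and 11 in Piezo2-side nuclei, and nuclei gated on Piezo2 and Adamtsl2 UMIs gave 8 on the Piezo2-side. The 9 genes were past the threshold under none of the alternatives run. Without the sub-clusters led by markers of other classes, chosen after seeing the data, 6 genes passed in stellate nuclei. Genes whose shares did not overlap numbered 0 to 4 (4 without control 2) and 1 with thinning to 3000 UMIs. Pairs that did not overlap numbered 4 to 12 (12 without knockout 1), 5 without thinning and 7 with thinning to 3000 UMIs. Groups with a mouse left out separate more often by chance than full groups do. No share over all genes or pairs is given for these settings, so these counts are not read as a rise.

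Fold changes that did not pass changed sign when 1 library was left out. In stellate nuclei the ranges were -0.13 to 0.19 for Ntm, -0.25 to 0.47 for Lrrc4c, -0.59 to 0.014 for Nkain2, -0.22 to 0.63 for Dcc and -0.56 to 0.14 for Ptprt. Without control 1 and knockout 2 together Nkain2 was at 0.078 and Ptprt at 0.34, and with thinned nuclei Dcc was at -0.074. In Piezo2-side nuclei the ranges were -0.060 to 0.026 for Ntm, -0.21 to 0.40 for Lrrc4c and -0.78 to 0.58 for Ptprt, and Ntm was at 0.0045 with Leiden resolution 1. In Adamtsl2-side nuclei they were -0.27 to 0.028 for Reln, -0.0092 to 0.40 for Ntm, -0.21 to 0.57 for Lsamp, -0.25 to 0.46 for Lrrc4c, -0.50 to 0.042 for Nkain2, -0.51 to 0.86 for Dcc and -0.70 to 0.23 for Ptprt. With gated nuclei Lsamp was at -0.18, Lrrc4c at -0.15 and Dcc at 0.66. For the difference between the kinds they were -0.079 to 0.16 for Reln, -0.38 to 0.18 for Lsamp, -0.071 to 0.14 for Lrrc4c, -0.019 to 0.035 for Robo2, -0.18 to 0.14 for Grid1 and -0.31 to 0.20 for Ptprt. With gated nuclei they were -0.089 for Reln, -0.20 for Lrrc4c, -0.30 for Nkain2 and -0.00099 for Robo2. The difference in the share of Piezo2-side nuclei was -6.01 points without control 2 and 10.5 points without control 1. The cause was not tested. No paired analysis was possible because the replicate numbers follow accession order and tie no control to a knockout. Depth limits Dcc most, with 881 UMIs in stellate nuclei.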

Other observations

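Some of the 9 genes were also read in clusters that were left without a class. A cluster of 286 nuclei led by Dmbt1 and Slc26a3, of which 96.7% before doublet removal came from 1 library, had a Ptprt UMI in 48.6%, a Nkain2 UMI in 32.5% and a Reln UMI in 28.7% of nuclei. A cluster of 17 nuclei led by Dclk1, Rgs13 and St18, with Pou2f3 among its leading genes, had a Robo2 UMI in 64.7%, a Ntm UMI in 58.8% and a Nkain2 UMI in 52.9%, and 94.1% of it came from 1 library. A cluster of 42 nuclei led by the immunoglobulin genes Ighg2b, Jchain and Igha had a Reln UMI in 33.3% of nuclei, at 0 to 2598 CPM over 6 libraries. These clusters are too small or too uneven over mice for a comparison.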
